A study of Mus musculus with 4 samples.

Results

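The extracellular matrix genes described here are 10 genes that fall into 3 groups by the structure their proteins build. *Col1a1*, *Col1a2* and *Col3a1* encode fibrillar collagen chains, *Col4a1*, *Col4a2*, *Lama1*, *Lamb1* and *Lamc1* encode chains of basement membrane collagen and laminin, and *Fn1* and *Sparc* encode matrix glycoproteins. They were chosen by name, with earlier results of these data known. Of the 10 genes, 8 had a row in the tables of expression and 7 had a usable value, out of 9936 gene names in all. *Fn1* had a failed estimate in the tables, and *Col3a1* and *Lamb1* had no row there and were not analysed here.

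RNA-Seq was performed on female mouse embryonic stem cells (ESCs) of the LF2 line, which has a 129/J background. Cells had been kept on feeder cells, then passaged without feeders, and were treated for 24 hr with or without 50 μg/ml L-ascorbic acid (AA) and with either DMSO or 10 μM GSK-J4. The 4 conditions were PBS+DMSO (the vehicles alone), PBS+GSK-J4 (GSK-J4), AA+DMSO (AA) and AA+GSK-J4 (both agents), and values are given in this order throughout. GSK-J4 enters cells and blocks JmjC histone demethylases that act on H3K27. It can also inhibit other JmjC demethylases, and the authors found more trimethylation of H3K4 at *Xist*, *Nodal* and *HoxC13*, which it induced. No genetic change was made in these cells, and all of them come from 1 line. There was 1 library for each condition, so no difference below has a replicate, an error or a p-value, and each is the difference between a pair of libraries. Values are FPKM, fragment numbers set relative to exon length and to the size of the library, which can be compared between genes. No read numbers come with the FPKM values, and the depth behind each value is unknown. In bulk RNA, fewer cells of a type and less RNA per cell cannot be told apart.

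Fibrillar collagens are secreted as rod-shaped triple helices by fibroblasts and other mesenchymal cells and assemble into the fibers of connective tissue. Basement membranes are thin sheets beneath epithelia, built from a laminin network and a type IV collagen network that nidogens and perlecan link together. In the early mouse embryo, laminin is laid down around the blastocyst stage, and the parietal endoderm later makes large amounts of type IV collagen, laminin and Sparc for Reichert's membrane. Type I collagen is built from *Col1a1* and *Col1a2* chains, type IV collagen from *Col4a1* and *Col4a2* chains, and the common laminin of the early embryo from *Lama1*, *Lamb1* and *Lamc1* chains. Collagen chains are modified in the endoplasmic reticulum by prolyl and lysyl hydroxylases, which need iron, 2-oxoglutarate and ascorbate. JmjC histone demethylases belong to the same broad family of enzymes.

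*Col4a1* and *Col4a2* are transcribed in opposite directions on chromosome 8. The sequence around their starts is shown because these genes gave the highest GSK-J4 ratios of the basement membrane group. In RefSeq (GRCm38.p6), *Col4a1* starts at position 11312826 on the minus strand and *Col4a2* at 11312805 on the plus strand. The start sites are thus 21 bases apart, and the first bases of both genes overlap. The promoter windows of both genes, from 250 bases before to 50 bases after each start, share 78 bases. The stretch printed below is chr8:11312677-11312954, the 78 shared bases with flanking bases added on each side, 278 bases in all on the strand of *Col4a2*, with matches to GGGCGG (the GC box) or CCAAT on either strand in capitals.

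Col4a1/Col4a2 promoter region: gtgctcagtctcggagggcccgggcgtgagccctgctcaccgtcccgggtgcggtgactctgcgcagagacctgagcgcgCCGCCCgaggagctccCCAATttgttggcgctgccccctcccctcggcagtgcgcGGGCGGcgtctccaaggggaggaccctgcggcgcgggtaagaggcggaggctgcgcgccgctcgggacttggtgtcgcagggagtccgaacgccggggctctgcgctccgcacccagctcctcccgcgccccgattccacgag

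The CCAAT match lies 32 bases before the start of *Col4a2*, and a GC box match lies just after the starts of both genes. That GC box is the 1 match that lies wholly within the 78 shared bases. Of the 32851 windows of 300 bases in the RefSeq promoter table, 37.4% hold CCAAT and 35.7% hold GGGCGG on either strand, and both are thus common letters in promoters. The promoter of *Col1a2* is shown beside it as the fibrillar collagen with an entry in the RefSeq promoter table and a measured value. It is chr6:4505368-4505667 on the plus strand, 300 bases, and capitals mark matches on either strand to the CCAAT box, to the GC box and to ACGTG, the core of hypoxia response elements.

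Col1a2 promoter: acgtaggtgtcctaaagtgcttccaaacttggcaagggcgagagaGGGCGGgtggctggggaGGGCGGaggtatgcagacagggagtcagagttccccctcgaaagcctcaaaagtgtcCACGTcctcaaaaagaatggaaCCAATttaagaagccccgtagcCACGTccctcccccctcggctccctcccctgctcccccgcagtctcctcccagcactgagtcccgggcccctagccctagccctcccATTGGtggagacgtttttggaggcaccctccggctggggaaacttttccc

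This window held 2 GC boxes, 2 CCAAT matches and 2 matches to ACGTG, and ACGTG occurs in 19.6% of all windows. TATAAA, found in 13.6% of all windows, was in neither sequence. *Sparc* had a promoter entry without any of the 4 motifs. *Col1a1*, *Lama1*, *Lamc1* and *Fn1* were not in the promoter table.

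The 7 genes with a value ranged from 1.21 to 99.4 FPKM. *Sparc*, which encodes a secreted calcium-binding glycoprotein that binds collagen, had the highest FPKM in every library, at 94.2 with the vehicles alone, 92.6 with GSK-J4, 96.9 with AA and 99.4 with both. It made up between 54.3% and 57.9% of the summed FPKM of the 7 genes. *Lamc1*, the laminin γ1 chain shared by most laminins, followed at 63.2, 52.5, 65.4 and 54.4 FPKM in the same order of libraries. Both genes stood above at least 89.8% of the 9779 genes analysed in every library. The other 5 genes lay between 1.21 and 8.45 FPKM, and *Lama1* in AA+GSK-J4 was the lowest. In PBS+DMSO the order of the FPKM values was *Sparc*, *Lamc1*, *Col4a1*, *Col1a1*, *Col4a2*, *Col1a2* and *Lama1*. *Col1a1*, *Col4a2* and *Col1a2* lay between 2.46 and 2.83 FPKM there, and without replicates that order cannot be told from no difference.

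**Figure D1:**
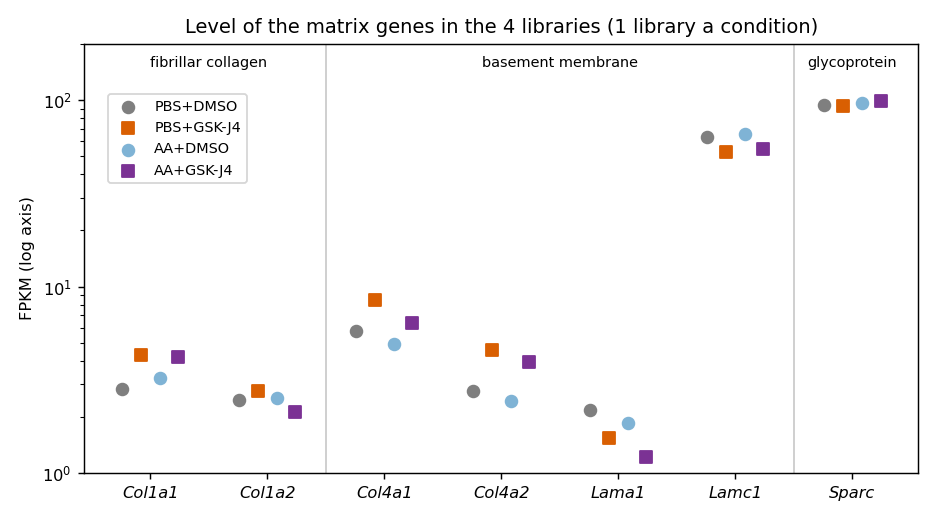
FPKM (log axis) of the 7 matrix genes with a value in the 4 libraries, 1 point for each library, grouped into fibrillar collagens, basement membrane genes and the glycoprotein Sparc. Lamc1 and Sparc lie above 50 FPKM in every library, and the other 5 genes lie below 10 FPKM.

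Because changes differ with expression level in these libraries, each change is given beside the 300 genes nearest in mean expression. Changes are log2((FPKM + 1)/(FPKM + 1)) of 2 libraries, a scale that understates the change of weakly expressed genes. Genes were kept when at least 1 of the libraries compared reached 1 FPKM, and each of the 7 genes was above 1 FPKM in all 4 libraries. The median log2 ratio of all genes for GSK-J4 was -0.17 without AA and -0.16 with AA. Dividing each library by its upper quartile moved these medians to 0.08 and 0.07, and scaling to the same total moved them to 0.17 and 0.14.

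None of the matrix genes differed by 2-fold in any comparison. For GSK-J4 without AA, 0 of 7 were at least 2-fold higher or lower, beside 4.96% of 9196 genes that were at least 2-fold higher and 3.50% that were at least 2-fold lower. With AA, it was 0 of 7 beside 4.13% higher and 3.38% lower of 9139 genes. For AA in DMSO, it was 0 of 7 beside 0.565% higher and 0.735% lower of 8843 genes. For AA in GSK-J4, it was 0 of 7 beside 0.512% higher and 0.599% lower of 9180 genes. Beside such shares, a count of 0 of 7 says nothing particular about these genes.

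The fibrillar collagen genes were weakly expressed and gave small ratios. *Col1a1*, the α1 chain of type I collagen (mm10, chr11:94936262-94952431), had an FPKM of 2.83 with the vehicles alone, 4.28 with GSK-J4, 3.24 with AA and 4.19 with both. Both GSK-J4 libraries were above both DMSO libraries. Its log2 ratio for GSK-J4 was 0.46 without AA and 0.29 with AA, beside medians of 0.06 and 0.05 for the genes nearest in expression. *Col1a2*, the α2 chain (chr6:4505622-4541480), had an FPKM of 2.46, 2.76, 2.52 and 2.11 in the same order. Here the GSK-J4 libraries were the highest and the lowest of the 4, and the DMSO libraries lay between them. The log2 ratio of *Col1a2* was 0.12 without AA and -0.18 with AA, and the latter became 0.05 when libraries were scaled to the same total. The nearest genes had a median of 0.11 in both comparisons, with a 5th to 95th percentile of -0.87 to 1.14 with AA.

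The chains of type I collagen were not at a constant ratio. The FPKM of *Col1a1* over that of *Col1a2* was 1.15 with the vehicles alone, 1.55 with GSK-J4, 1.29 with AA and 1.99 with both. It was higher in both GSK-J4 libraries than in both DMSO libraries. A ratio within 1 library does not depend on how libraries are scaled. The summed FPKM of both genes was 5.29, 7.03, 5.76 and 6.29 in the same order.

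The basement membrane genes split, with the type IV collagen genes higher and the laminin genes lower in GSK-J4. *Col4a1*, the α1 chain of type IV collagen (chr8:11198442-11312740), had an FPKM of 5.80 with the vehicles alone, 8.45 with GSK-J4, 4.90 with AA and 6.36 with both. *Col4a2*, its α2 chain (chr8:11312854-11449282), had an FPKM of 2.74, 4.58, 2.42 and 3.95 in the same order. For both genes the GSK-J4 libraries were above the DMSO libraries. The log2 ratio of *Col4a1* for GSK-J4 was 0.47 without AA and 0.32 with AA, and that of *Col4a2* was 0.58 and 0.53. *Col4a2* had the highest ratio of the 7 genes in both comparisons, 1.67 and 1.63 times the DMSO level on the linear scale. The genes nearest to *Col4a2* had medians of 0.06 and 0.03, with a 5th to 95th percentile of -0.65 to 1.12 without AA, so its ratio is well inside their spread. Some exons of *Col4a1* and *Col4a2* overlap on opposite strands in GENCODE M21. The loci listed with the FPKM values do not overlap and have 113 bases between them. Whether reads were counted by strand is not given in the sources used here.

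The laminin genes were lower in GSK-J4 as deposited. *Lama1*, the laminin α1 chain (chr17:67695752-67822646), had an FPKM of 2.18 with the vehicles alone, 1.53 with GSK-J4, 1.85 with AA and 1.21 with both. The log2 ratio of *Lama1* was -0.33 without AA and -0.36 with AA, and it stayed below 0 at -0.08 and -0.17 with libraries scaled to the same total. Its nearest genes had medians of 0.11 and 0.09. *Lamc1* (chr1:153218922-153333006) had log2 ratios of -0.26 in both comparisons, from the FPKM given above. For *Lamc1* the nearest genes were lower still, with medians of -0.51 and -0.50, and its own ratio became 0.12 and 0.07 with libraries scaled to the same total. The direction for *Lamc1* therefore depends on the scaling, which it does not for *Lama1*.

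Ratios between basement membrane chains within a library show how they differ relative to each other, not which of them differs between libraries. The FPKM of *Col4a1* over that of *Col4a2* was 2.12 with the vehicles alone, 1.85 with GSK-J4, 2.02 with AA and 1.61 with both, a narrow range next to the other chain pairs. That of *Lamc1* over *Lama1* was 29.0, 34.4, 35.4 and 44.9, so the laminin γ1 chain was far above the α1 chain in every library. That of *Col4a1* over *Lamc1* was 0.0918, 0.161, 0.0749 and 0.117, and both GSK-J4 libraries were above both DMSO libraries. The summed FPKM of *Col4a1* and *Col4a2* was 8.55, 13.0, 7.32 and 10.3. *Lamc1* made up between 78.3% and 87.7% of the summed FPKM of the 4 basement membrane genes, so a sum over that group mostly follows *Lamc1*.

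**Figure D2:**
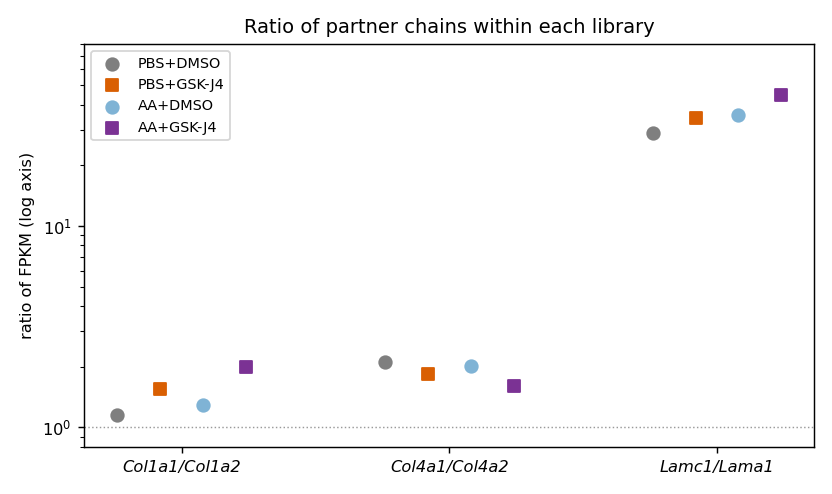
Ratio of the FPKM of partner chains within each library (log axis, dotted line at a ratio of 1), 1 point for each library. Col1a1/Col1a2 ranges from 1.15 to 1.99, Col4a1/Col4a2 from 1.61 to 2.12, and Lamc1/Lama1 from 29.0 to 44.9.

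The glycoprotein genes were the strongest expressed beside *Lamc1*. The log2 ratio of *Sparc* (chr11:55394404-55420021) for GSK-J4 was -0.02 without AA and 0.04 with AA, and the first of these turned to 0.15, 0.26 and 0.36 under centring, upper quartile scaling and scaling to the same total. The 300 genes nearest to *Sparc* had medians of -0.60 and -0.55, so *Sparc* held its level while most genes of like expression were lower, though it was inside their 5th to 95th percentile of -1.11 to 0.31 without AA. *Fn1*, which encodes fibronectin (chr1:71585468-71653340), a protein that binds integrins and collagen, was listed with 2 coding sequence groups and a failed estimate. The stronger of these was listed at 43.0 FPKM with the vehicles alone, 33.2 with GSK-J4, 44.6 with AA and 35.8 with both. These values are given as listed and enter no ratio, count or median above.

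**Figure D3:**
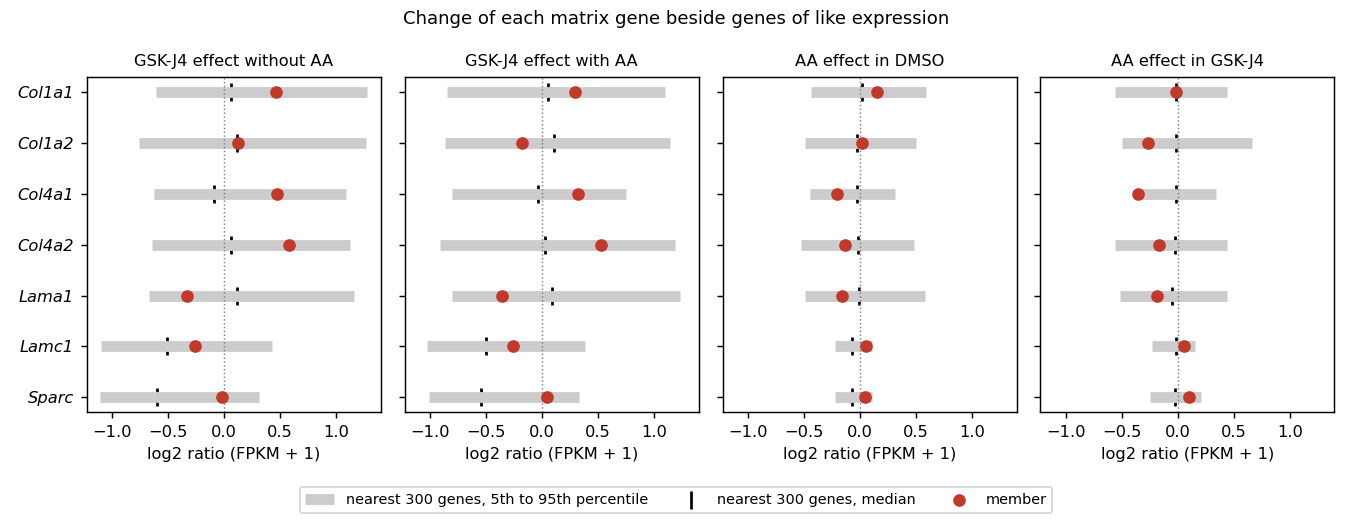
Log2 ratio of FPKM + 1 for each of the 7 matrix genes (red points) in the 4 comparisons, with the 5th to 95th percentile (grey bars) and median (black marks) of the 300 genes nearest in mean expression. Every point lies within its bar except Col4a1 for AA in GSK-J4, at -0.36 beside a 5th percentile of -0.33.

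Over the 7 genes, the median log2 ratio for GSK-J4 was 0.12 without AA, with 4 higher and 3 lower and a range of -0.33 to 0.58. With AA it was 0.04, with 4 higher and 3 lower and a range of -0.36 to 0.53. Over all genes, 37.0% were higher without AA and 37.8% with AA. The 7 genes lay inside the 5th to 95th percentile of their nearest genes in both GSK-J4 comparisons. The difference between the ratios with and without AA was largest for *Col1a2*, at -0.30, and lay between -0.17 and 0.06 for the other 6 genes. Over 8972 genes this difference had an SD of 0.33 and a 5th to 95th percentile of -0.47 to 0.41, so each of the 7 genes lay within the spread of all genes.

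AA, compared with PBS, gave smaller ratios. In DMSO, the log2 ratio for AA ranged from -0.21 for *Col4a1* to 0.15 for *Col1a1*, with a median of 0.02 beside -0.05 over all genes, and 4 genes were higher and 3 lower. In GSK-J4, it ranged from -0.36 for *Col4a1* to 0.10 for *Sparc*, with a median of -0.17 beside -0.02 over all genes, and 2 were higher and 5 lower. *Col4a1*, *Col4a2* and *Lama1* were lower with AA in both comparisons, *Lamc1* and *Sparc* were higher in both, and no scaling turned the sign of any of the 7 genes. *Col1a1* and *Col1a2* had ratios of opposite sign in DMSO and in GSK-J4. The 4 comparisons share libraries in pairs, so these are not independent of each other. *Col4a1* in GSK-J4 was the 1 gene outside the 5th to 95th percentile of its nearest genes, which was -0.33 to 0.34.

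The other matrix genes were read from lists by function, of which only the genes with a row could be described. Of 14 other fibrillar and interstitial collagen genes, 5 had a row. For GSK-J4, 5 of 5 were higher without AA and 4 of 4 with AA, with medians of 0.67 and 0.57 and none at 2-fold. *Col5a1*, *Col5a2* and *Col5a3*, chains of the type V collagen that nucleates type I fibrils, were above 1 FPKM in every library. *Col5a1* had an FPKM of 1.68 with the vehicles alone, 3.26 with GSK-J4, 1.65 with AA and 2.66 with both, and *Col5a2* had 2.09, 3.63, 1.82 and 3.28. *Col8a1* and *Col27a1* were below 1 FPKM in both DMSO libraries and passed the filter only through GSK-J4 libraries, so they had to come out higher.

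Other basement membrane genes differed little. Of 21 genes 9 had a row, 7 of 9 were higher and 2 lower with GSK-J4 without AA, and 5 of 8 were higher and 3 lower with AA, with medians of 0.07 and 0.06. Scaling to the same total gave 9 of 9 and 7 of 8 higher, with a median of 0.38 in both. Most of all genes were also higher at that scaling, with medians of 0.17 and 0.14. *Smoc1*, *Smoc2* and *Tinagl1* were each below 1 FPKM in at least 1 library. *Nid2*, a nidogen, had an FPKM of 52.9 with the vehicles alone, 52.9 with GSK-J4, 51.6 with AA and 52.3 with both, a level like that of *Lamc1*, which its protein's family binds. *Col18a1*, the precursor of endostatin, had 51.3, 47.1, 49.1 and 43.4. *Nid1* had 13.8, 17.2, 14.0 and 16.5, with both GSK-J4 libraries above both DMSO libraries.

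Among other interstitial matrix proteins, 10 of 28 genes had a row. With GSK-J4, 9 were higher and 1 lower without AA and 8 were higher and 2 lower with AA, with medians of 0.56 and 0.57, or 0.89 and 0.85 with libraries scaled to the same total. *Vcan*, the large proteoglycan versican, had an FPKM of 8.29 with the vehicles alone, 23.3 with GSK-J4, 7.29 with AA and 24.0 with both, and was 2-fold higher in both comparisons, with log2 ratios of 1.39 and 1.59. *Ecm1* was 2-fold higher without AA, from 0.388 to 3.31 FPKM, and passed the filter there only through the GSK-J4 library. *Thbs1*, which encodes thrombospondin, had 8.80, 17.7, 8.16 and 15.7 FPKM, and the proteoglycan *Bgn* had 9.33, 16.4, 9.22 and 15.5. In these 3 lists of other matrix genes the medians for GSK-J4 were above 0 as deposited. Each scaling used here raised the GSK-J4 ratios, so these medians had to stay above 0.

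**Figure D4:**
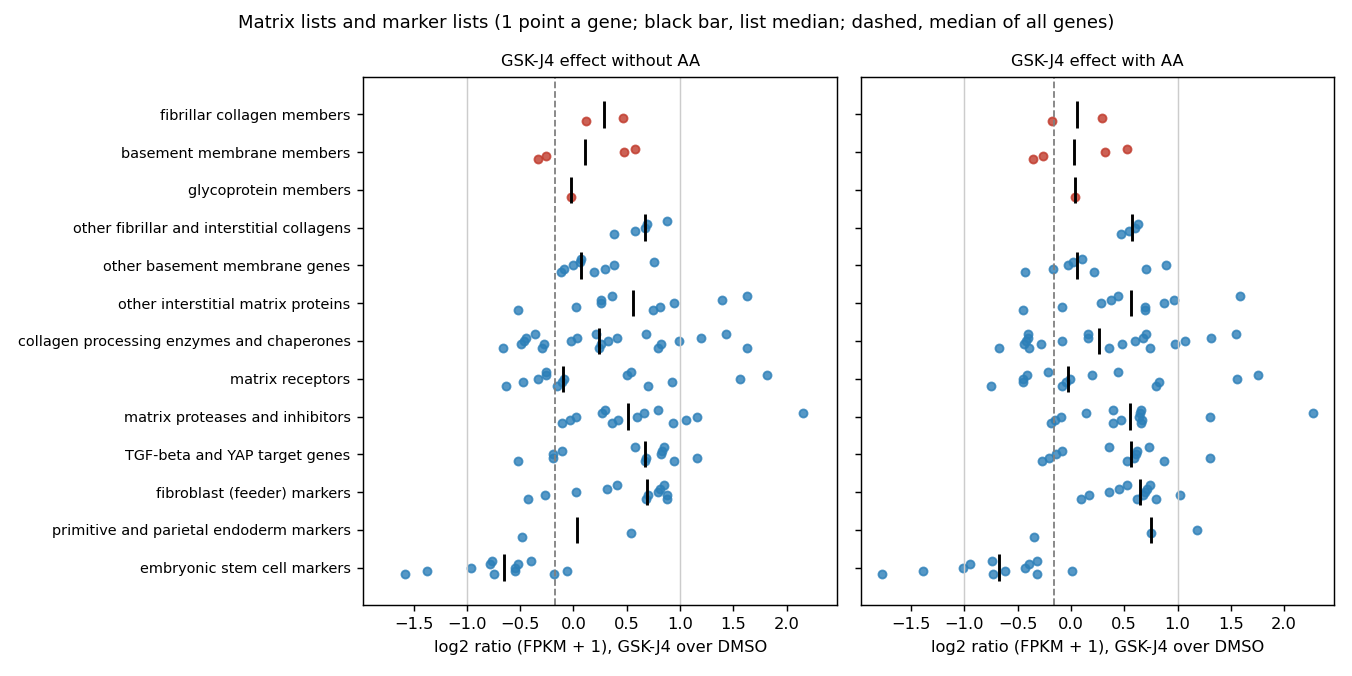
Log2 ratio of FPKM + 1 for GSK-J4 over DMSO without AA (left) and with AA (right), 1 point for each gene kept, with the median of each list (black bars), the median of all genes (dashed lines) and 2-fold (grey lines). The 7 members (red) lie between -0.36 and 0.58, and the embryonic stem cell markers have medians of -0.65 and -0.67.

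Enzymes and chaperones that process collagen included genes with larger differences than the collagens themselves. Of 30 genes 22 had a row, and with GSK-J4 13 of 21 were higher and 8 lower without AA, and 12 of 20 were higher and 8 lower with AA, with medians of 0.24 and 0.26. In each comparison 3 were at least 2-fold higher, beside 4.96% and 4.13% of all genes. With libraries scaled to the same total, 17 were higher and 4 lower without AA and 14 higher and 6 lower with AA. The medians were then 0.48 and 0.51, beside 0.17 and 0.14 over all genes. At that scaling 7 and 4 were at least 2-fold higher. Because it raised the GSK-J4 ratios and the share over all genes was not counted, these 2-fold counts cannot be judged. *Plod2*, a lysyl hydroxylase that sets the crosslinks of collagen, had an FPKM of 18.0 with the vehicles alone, 57.9 with GSK-J4, 12.3 with AA and 37.7 with both. *Serpinh1*, the collagen chaperone Hsp47, had 15.8, 44.4, 14.4 and 37.2. Both were 2-fold higher in both comparisons, with log2 ratios of 1.63 and 1.55 for *Plod2* and 1.43 and 1.31 for *Serpinh1*. The abundant *P4hb* and *Ppib*, which serve many secreted proteins, were lower with GSK-J4, at 153, 119, 133 and 109 FPKM for *P4hb* and 166, 135, 168 and 123 FPKM for *Ppib*.

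AA is a cofactor of the hydroxylases in this list, which are only some of its genes. More genes of the list were lower than higher with AA, as over all genes. For AA in DMSO, 6 of 21 were higher and 15 lower with a median of -0.09, and in GSK-J4 4 of 20 were higher and 16 lower with a median of -0.13, beside 37.6% and 44.6% of all genes that were higher. With libraries scaled to the same total, 8 were higher and 12 lower in DMSO, with a median of -0.02. In GSK-J4 that scaling gave 6 higher and 14 lower, with a median of -0.11. *P4ha1*, a catalytic chain of collagen prolyl 4-hydroxylase, was named after its values were seen. It had an FPKM of 7.66 with the vehicles alone, 12.8 with GSK-J4, 2.81 with AA and 7.03 with both, and each AA library was below its partner without AA. Its log2 ratio for AA was -1.18 in DMSO, where it was the only gene of the list at 2-fold, and -0.79 in GSK-J4. *Plod2* also had lower values with AA, with log2 ratios of -0.52 and -0.61. *P4ha2*, the other catalytic chain measured and also named after its values were seen, had 2.50, 7.04, 1.96 and 4.85 FPKM, with log2 ratios for AA of -0.24 and -0.46. *Col1a1*, *Col1a2*, *Col4a1* and *Col4a2* had ratios for AA between -0.36 and 0.15.

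**Figure D5:**
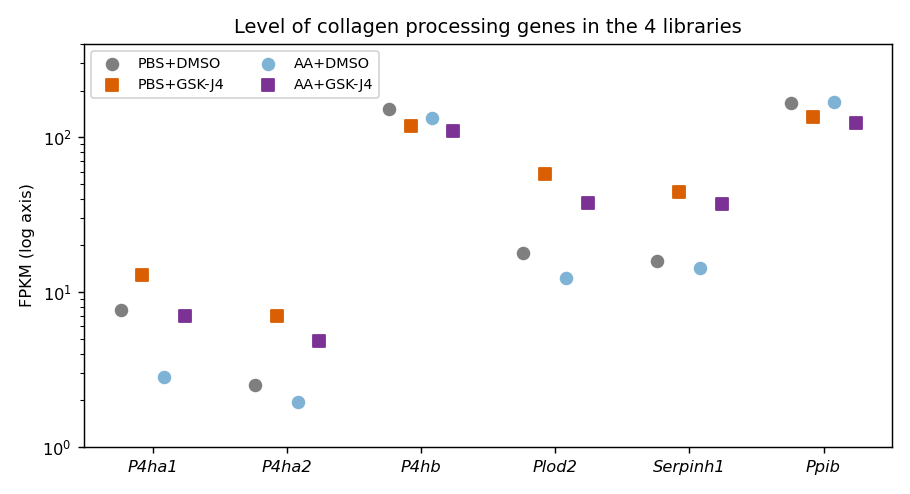
FPKM (log axis) of 6 genes of collagen processing in the 4 libraries, 1 point for each library. For P4ha1, P4ha2, Plod2 and Serpinh1 both GSK-J4 libraries lie above their DMSO partners and each AA library lies below its partner without AA, and P4hb and Ppib lie between 109 and 168 FPKM.

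Of 24 matrix receptor genes 16 had a row and 14 a value, with 6 higher and 8 lower for GSK-J4 in both comparisons and medians of -0.10 and -0.03, which turned to 0.17 and 0.20 with upper quartile scaling. *Itgb1*, the integrin β1 chain of most collagen and laminin receptors, had an FPKM of 85.9 with the vehicles alone, 68.2 with GSK-J4, 75.6 with AA and 64.8 with both. *Sdc4*, the heparan sulfate proteoglycan syndecan 4, had 18.5, 67.6, 17.2 and 60.2 and log2 ratios of 1.82 and 1.75 for GSK-J4. *Itgb4*, the laminin receptor chain of epithelial cells, had 0.653, 3.86, 0.632 and 3.81, and passed the filter only through the GSK-J4 libraries. *Bcam*, a receptor of laminin α5, had 48.9, 40.7, 43.5 and 31.7.

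Of 24 genes of matrix proteases and their inhibitors 17 had a row, and 12 of 14 were higher and 2 lower with GSK-J4 without AA and 11 higher and 3 lower with AA, with medians of 0.51 and 0.55, or 0.77 and 0.79 with libraries scaled to the same total. *Serpine2*, an inhibitor of serine proteases, had an FPKM of 8.62 with the vehicles alone, 41.7 with GSK-J4, 6.06 with AA and 33.1 with both. Its log2 ratios of 2.15 and 2.27 were the highest of any gene in these lists. *Timp1*, an inhibitor of metalloproteinases, had 46.2, 46.8, 49.5 and 44.6. *Serpine2* was 2-fold higher in both comparisons and the metalloproteinase *Mmp15* without AA, and *Plau* and *Mmp13* passed the filter only through GSK-J4 libraries. A list of 12 genes known to respond to TGF-β or YAP had a row for every gene and shared 5 of them with other lists, and 8 were higher and 4 lower in both GSK-J4 comparisons, with medians of 0.68 and 0.56. With libraries scaled to the same total, 11 and 12 of these genes were higher. The median over all genes was then 0.17 and 0.14, so most genes were higher at that scaling.

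Markers of other cells were read beside the collagens, since cells had been kept on feeders. Of 23 fibroblast markers 12 had a row, and the 11 without one include *Pdgfrb*, *Prrx1*, *Dcn*, *Lum* and *Postn*, so the defining markers of fibroblasts were mostly not analysed here. Of the 12, 6 stand in other lists above as well. The summed FPKM of the 12 was 65.7 with the vehicles alone, 105 with GSK-J4, 59.8 with AA and 95.8 with both. With GSK-J4, 10 of 12 were higher and 2 lower without AA, and 12 of 12 were higher with AA, with medians of 0.69 and 0.65. As deposited, 0 and 1 of the markers were at least 2-fold higher, beside 4.96% and 4.13% of all genes. With libraries scaled to the same total the marker medians were 1.01 and 0.94, beside 0.17 and 0.14 over all genes. At that scaling 6 and 4 of the markers were at least 2-fold higher. The scaling raised the GSK-J4 ratios and the share over all genes was not counted, so nothing is read from these marker counts. *Tagln* had 14.4, 26.8, 15.4 and 24.1 FPKM, *Acta2* had 12.9, 21.4, 12.0 and 17.8, and *Ccl2* had 7.80, 15.2, 6.80 and 12.0. *Cav1*, the 1 marker at 2-fold with AA, passed the filter only through the GSK-J4 libraries. The marker sum was thus higher where *Col1a1*, *Col4a1*, *Col4a2* and the type V collagens were higher, whereas *Col1a2* was lower with both agents than with AA. Their part in the collagen values was not tested. *Thy1*, a surface marker of fibroblasts, was at 2.79, 1.82, 1.78 and 2.13 FPKM, with no order by treatment.

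Of 19 markers of primitive and parietal endoderm 5 had a row, and *Gata4*, *Gata6*, *Sox17*, *Foxa2*, *Dab2* and *Pdgfra* were among the 14 without one. The 5 with a row summed to 2.95, 3.69, 2.73 and 5.42 FPKM, each of them under 2 FPKM in every library. *Sox7* was at 1.61 FPKM with the vehicles alone, 0.867 with GSK-J4, 1.17 with AA and 0.697 with both, lower in GSK-J4 as *Lama1* was. *Srgn* was at 0.608, 1.34, 0.697 and 1.86 FPKM, and *Thbd* stayed under 1 FPKM. *Hnf4a* was close to 0 FPKM in 3 libraries and at 1.27 in AA+GSK-J4. Of 11 trophoblast markers 6 had a row, with summed FPKM of 21.5, 23.7, 28.0 and 27.0, 3 higher and 3 lower with GSK-J4 without AA and 4 higher and 1 lower with AA. The strongest of them was *Tfap2c*, at 10.5, 13.2, 17.2 and 14.3 FPKM, and the keratin genes *Krt8* and *Krt18* stayed between 1.97 and 4.99 FPKM.

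The ESC label was checked against 13 markers, 12 of them with a value. *Pou5f1*, which encodes Oct4, was at 867, 510, 800 and 480 FPKM and *Sox2* at 223, 155, 214 and 163, far above any fibroblast marker. The 12 summed to 2459, 1489, 2247 and 1348 FPKM, and with GSK-J4 12 of 12 were lower without AA and 11 of 12 with AA, with medians of -0.65 and -0.67. With libraries scaled to the same total the medians were -0.27 and -0.34, and 10 of 12 and 9 of 12 were lower. As deposited, *Utf1* and *Dppa3* were 2-fold lower in both comparisons, with log2 ratios of -1.58 and -1.77 for *Utf1* and -1.37 and -1.39 for *Dppa3*, and *Tdgf1* had -0.78 and -1.01. The lower ESC markers went together with higher *Col1a1*, *Col4a1* and *Col4a2*, and their part in the collagen values was not tested.

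Genes with profiles most like the matrix groups were sought among 6558 genes with at least 5 FPKM in a library, by the root mean square distance of centred log2(FPKM + 1) over the 4 libraries. Nearest to the mean of *Col1a1* and *Col1a2* were *Lrrcc1*, *Lmf1*, *Coro1b*, *Coa4* and *Dync2li1*, at distances of 0.00897 to 0.0187. Nearest to the mean of *Col4a1*, *Col4a2*, *Lama1* and *Lamc1* were *Nt5c2*, *Triap1*, *Lyrm4*, *Wbp1l* and *Emd*, at distances of 0.0100 to 0.0203. The members themselves lay farther from these means, at 0.114 for the fibrillar collagens and up to 0.235 for the basement membrane genes. None of these nearest genes is in a matrix list, and with only 4 libraries many genes lie this close.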

How the data were processed

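RNA-Seq of 4 libraries, 1 per condition, was used as deposited. The authors removed duplicate reads, aligned single-end reads with TopHat2 and calculated FPKM with Cufflinks2, and their processing notes name mm10. They deposited 2 tables, one for each GSK-J4 comparison, with 11033 coding sequence groups each. The scaling between the tables is not given in the sources used here, and AA effects compare values across tables. The deposited FPKM values stand under headers that name log10 but are linear. The fold changes, p-values and q-values in the tables are the authors' own comparisons and were not used.

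Coding sequence groups of a gene were added up, and 157 genes with a failed estimate were left out, which left 9779. Log2 ratios used a pseudocount of 1, for genes that reached 1 FPKM in at least 1 of the libraries compared. Calls were at least 2-fold, with no test. Depth is unknown, so no interval was given. Genes named are the members, the 3 most expressed of each list, those at 2-fold in both GSK-J4 comparisons and the 5 nearest in profile, while *P4ha1*, *P4ha2*, *Ecm1*, *Mmp15*, *Thy1*, *Cav1*, *Hnf4a* and the genes named for the filter were chosen after their values were seen. Some genes that the rule names are not reported here. The members and lists were chosen with earlier results of these data known. Alternatives were pseudocounts of 0.1 and 5, other filters, 3 scalings, the largest coding sequence group and a 1.5-fold threshold. Scripts were tested on simulated data. Loci are as in the tables. Promoters came from RefSeq (GRCm38.p6, the build that mm10 names), and overlaps from GENCODE M21. Python 3.11.15, numpy 2.4.6, pandas 2.3.3 and matplotlib 3.10.9 were used.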

Additional observations from a re-analysis of the deposited data

Results flagged for a closer look

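The GSK-J4 ratio of *Col1a2* had opposite signs without and with AA, a difference of -0.30 on the log2 scale, and its AA ratio had opposite signs in DMSO and in GSK-J4, by construction with the same difference of -0.30. The GSK-J4 ratio of *Sparc* also had opposite signs, with a difference of 0.06. The AA ratio of *Col1a1* was above 0 in DMSO and below 0 in GSK-J4, a difference of -0.17. With 1 library per condition, none of these differences was tested. The weaker coding sequence group of *Fn1*, which has a failed estimate and enters no comparison, was listed at 2.98 FPKM in PBS+GSK-J4 and 5.48 in AA+GSK-J4, beside 0.000999 in PBS+DMSO and 0.0970 in AA+DMSO.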

How the results depend on the processing

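No paired analysis was possible because each condition has 1 library and the labels give no replicate numbers to pair. No replicate could be left out for the same reason. The median log2 ratio of the 7 genes for GSK-J4 without and with AA moved to 0.29 and 0.19 with ratios centred on the median of all genes, to 0.32 and 0.29 with upper quartile scaling, and to 0.40 and 0.37 with libraries scaled to the same total. The median for AA in GSK-J4 moved to -0.07 with a pseudocount of 5. No median changed sign under these alternatives, but the 3 scalings raised the GSK-J4 ratios, so those medians had to stay above 0. Of the 7 genes, 0 were 2-fold higher or lower under any alternative of scaling, filter, pseudocount or coding sequence group. At a 1.5-fold threshold on FPKM + 1 the number was also 0. On the linear scale with no pseudocount, *Col4a2* was at 1.67 and 1.63 times its DMSO level without and with AA. *Col1a1* was at 1.51 without AA, and *Lama1* was at 0.656 with AA. Of the 28 log2 ratios, 6 moved by 0.1 or more with a pseudocount of 0.1, 11 with a pseudocount of 5 and 14 with each of the 3 scalings, and none with the other filters or the largest coding sequence group. The largest shift was 0.38, with scaling to the same total. With *Fn1* included, which was chosen after seeing the data, 4 of 8 genes were higher with GSK-J4 in both comparisons, and the medians were 0.05 without AA and -0.04 with AA, the latter of opposite sign to the 0.04 of the 7 genes. The depth is unknown, so counting error could not be set beside the genes under 10 FPKM.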
